A study of Mus musculus with 12 samples.

Results

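A set of 10 genes was followed across the libraries of mouse macrophages that had or had not taken up dead melanoma cells. They are the guanylate-binding proteins Gbp2, Gbp3, Gbp5 and Gbp7, the immunity-related GTPases Irgm1, Igtp and Iigp1, the transcription factor Irf1, and the chemokines Cxcl9 and Cxcl10. They were chosen by name, as classical interferon-gamma-induced GTPases with Irf1 and 2 of its chemokine targets, and matched to the counted genes by Ensembl identifier. All 10 members were found among 55604 counted genes. Of these, 9 passed the low-count filter and were among the 16406 genes tested. Cxcl9 did not pass.

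The cells were bone marrow-derived macrophages from C57BL/6 mice, cultured in M-CSF (20 ng/ml), a growth factor for this lineage, and taken on day 7. Each of 3 groups had 4 libraries. The first group was macrophages with no treatment, called macrophages alone here. The second received dead control cells of B16-F10, a melanoma line of the mouse, and the third dead STC1OE B16-F10 cells, which overexpress the secreted glycoprotein STC1. Corpses and macrophages were kept together for 20 h at a stated ratio of 1 to 5, read here as 5 corpses per macrophage, and unbound corpses were then washed away. The design text counts 4 independent experiments per condition. How the cells were killed and whether the overexpressing line is 1 clone are not given in the sources used here. All members are genes of the macrophage's own genome, but the corpses are mouse cells too, so reads from corpse RNA cannot be told apart from those of the macrophages by sequence.

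Interferon-gamma binds a receptor made of Ifngr1 and Ifngr2, and signals through the kinases Jak1 and Jak2. The signal reaches the gamma-activated site (GAS) of genes such as Irf1, whose product then binds the interferon-stimulated response element (ISRE) of later genes, the GTPases among them. Type I interferons use another receptor and a complex with Irf9 that also binds the ISRE, so many of these genes answer to both kinds of interferon. In macrophages the GTPases are known for attacking vacuoles that hold microbes, and the chemokines for drawing T cells that carry the receptor Cxcr3.

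The promoters show which of these elements each gene carries close to its start. RefSeq (GRCm38.p6) gave promoter windows for 9 members, 11 windows in all, because Gbp3 and Irf1 have 2 annotated starts each. The 250 bases before each start were searched on both strands for the letters GAAA, any 2 bases and GAAA again (ISRE), the letters TTCNNNGAA (GAS) and the kappaB motif. Over all 32851 windows of this length, 2.98% held the ISRE letters, 7.02% the GAS letters and 7.25% the kappaB motif. The following 5 windows are printed 5′ to 3′ on the gene's strand, with every match in capitals, because they hold no annotated exon and show the arrangements that the members differ in. Gbp7 is at chr3:142530086-142530335 (plus strand), Igtp at chr11:58199306-58199555 (plus), Irf1 at chr11:53769764-53770013 (plus), Cxcl9 at chr5:92328080-92328329 (minus) and Cxcl10 at chr5:92348890-92349139 (minus).
Gbp7: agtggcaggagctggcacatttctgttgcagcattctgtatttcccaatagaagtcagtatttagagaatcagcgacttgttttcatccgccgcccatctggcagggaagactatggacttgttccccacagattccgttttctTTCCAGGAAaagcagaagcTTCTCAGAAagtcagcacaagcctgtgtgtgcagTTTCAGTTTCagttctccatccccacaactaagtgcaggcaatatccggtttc
Igtp: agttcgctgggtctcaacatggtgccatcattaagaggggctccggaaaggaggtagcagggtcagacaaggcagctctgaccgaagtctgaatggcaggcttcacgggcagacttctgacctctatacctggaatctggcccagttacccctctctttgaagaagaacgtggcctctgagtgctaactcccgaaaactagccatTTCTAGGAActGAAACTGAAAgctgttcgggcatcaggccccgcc
Irf1: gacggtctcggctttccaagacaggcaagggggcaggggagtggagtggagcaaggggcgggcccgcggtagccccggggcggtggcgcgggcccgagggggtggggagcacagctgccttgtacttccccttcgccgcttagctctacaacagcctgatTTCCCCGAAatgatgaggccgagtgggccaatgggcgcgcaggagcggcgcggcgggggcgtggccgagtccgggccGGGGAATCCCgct
Cxcl9: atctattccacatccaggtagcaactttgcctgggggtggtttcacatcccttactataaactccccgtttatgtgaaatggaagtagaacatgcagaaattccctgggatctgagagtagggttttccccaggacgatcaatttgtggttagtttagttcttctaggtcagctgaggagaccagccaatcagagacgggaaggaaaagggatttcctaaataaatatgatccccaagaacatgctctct
Cxcl10: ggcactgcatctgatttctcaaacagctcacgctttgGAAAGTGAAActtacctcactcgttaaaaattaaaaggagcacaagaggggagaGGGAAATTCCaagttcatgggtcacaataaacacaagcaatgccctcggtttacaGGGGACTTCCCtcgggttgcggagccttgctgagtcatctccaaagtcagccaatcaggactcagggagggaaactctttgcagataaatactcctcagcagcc

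The printed Gbp7 window held 2 GAS matches, from −106 to −98 and from −87 to −79 relative to the start, and 1 ISRE match from −53 to −44. In Igtp a GAS match from −45 to −37 lay next to an ISRE match from −34 to −25. Irf1 differed from the GTPases in having no ISRE match, with 1 GAS match from −90 to −82 and 1 kappaB match from −13 to −4. Cxcl10 held 1 ISRE match, from −213 to −204, and 3 kappaB matches, 2 of which overlap by all but 1 base, and no GAS match. The Cxcl9 window held none of the 3 patterns, which says only that these letters are not in this window. Of the members not printed, Gbp2 had 1 ISRE match, Gbp5 had 1 ISRE, 2 GAS and 1 kappaB match, and Irgm1 and the first start of Gbp3 had 2 overlapping ISRE matches each. The second starts of Gbp3 and Irf1 had none. The windows not printed hold annotated exon bases of the same gene: all 250 for Irgm1, 61 for Gbp2 and 34 for Gbp5. They are 18 at the first and 178 at the second start of Gbp3, and 56 at the second start of Irf1. A match is a stretch of letters and no measure of binding.

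**Figure D1:**
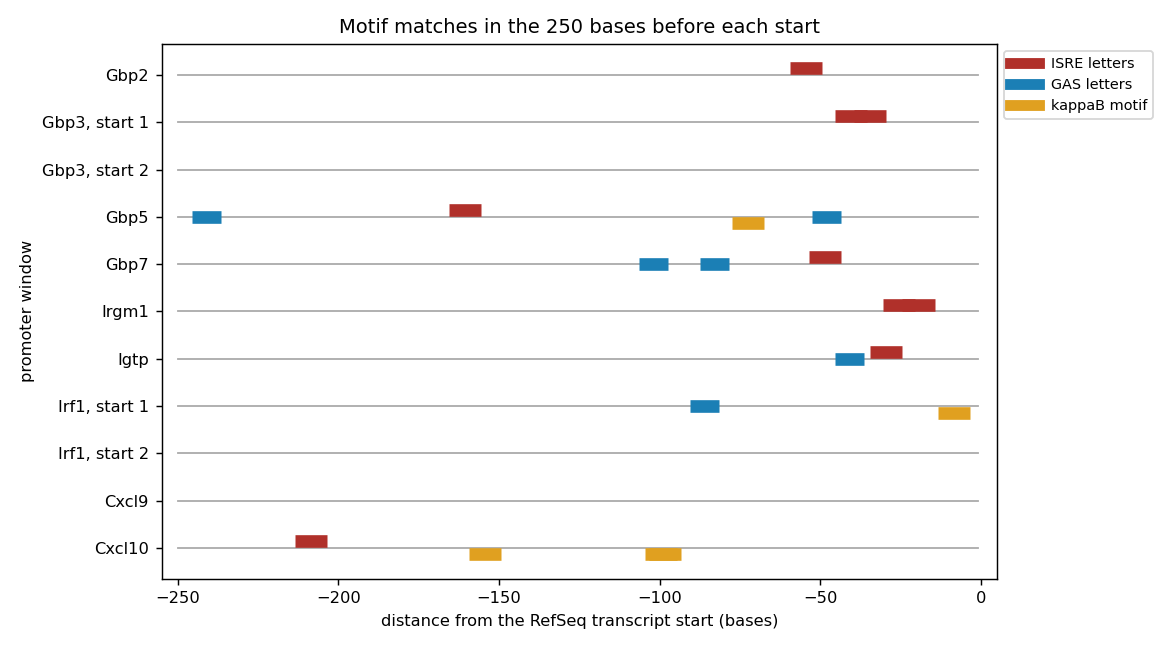
Matches to the ISRE letters, the GAS letters and the kappaB motif (coloured blocks) in the 250 bases before each RefSeq start of 9 members, by distance from the start in bases. All windows of GTPase genes except the second start of Gbp3 hold at least 1 ISRE match, Irf1 and Cxcl9 hold none, and kappaB matches are seen in Gbp5, the first Irf1 start and Cxcl10.

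The libraries held 28488441 to 39981074 counts assigned to genes. A count of 0 then allows a level of up to 0.0746 CPM in the deepest and 0.104 CPM in the shallowest library, taking 3 counts as the limit and covering counting error only. CPM are counts relative to the library's assigned total, after scaling by edgeR's TMM factors. In macrophages alone and with STC1-overexpressing corpses, replicates 1 and 2 resembled each other, as did replicates 3 and 4, and no label gives a reason. With control corpses only replicates 3 and 4 did so. The SDs and p-values below take the 4 libraries of a group as independent. Whether the pairs share a source was not tested. All 10 macrophage markers were detected in every group, with summed levels of 16300 to 17100 CPM in macrophages alone, 13800 to 15500 with control and 13700 to 14800 with STC1-overexpressing corpses. Lyz2 made up most of these sums, at means of 11190, 9157 and 8683 CPM. In both comparisons with macrophages alone 7 of the 10 were called lower and 3 higher (Cd68, Mertk and Fcgr1). Of 14 T and NK cell markers (Cd4, which macrophages express, left out), 6 had no count in any library of a group and the sum was below 1 CPM in each library. Summed neutrophil markers were 172 to 181 CPM in macrophages alone, 91.1 to 96 CPM with control and 84 to 90.5 CPM with STC1-overexpressing corpses. Nearly all of it was Mmp8, at means of 166.7, 90.3 and 83.8 CPM, while Ly6g had no count in any library. All 4 tested neutrophil markers were called lower in both comparisons. B cell markers summed to 2.31 to 2.69, 2.04 to 2.49 and 1.73 to 2.17 CPM, and dendritic cell markers to 1.95 to 2.37, 1.49 to 1.82 and 1.72 to 1.92 CPM. Melanocyte markers, genes of the lineage the corpses came from, numbered 15 and summed to 168 to 175, 130 to 135 and 124 to 128 CPM. Most of this was Mitf, at means of 164.7, 109.5 and 109.1 CPM. The 12 picked for a mean below 1 CPM in macrophages alone summed to 1 to 1.64, 12.8 to 17 and 7.45 to 9.6 CPM. Of 11 tested melanocyte markers, 9 were called higher and 1, Mitf, lower in both comparisons with macrophages alone. The part of these other cells and of corpse RNA in the members' levels was not tested, and in bulk RNA fewer cells of a type cannot be told apart from less RNA per cell.

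The members did not move as 1 group. With control corpses, compared with macrophages alone, Cxcl10 and Irgm1 rose while Irf1 and Gbp7 fell, so 2 of the 9 tested members were higher and 2 lower at an adjusted p below 0.05 (edgeR's quasi-likelihood test, two-sided, Benjamini-Hochberg over all genes tested). Of all genes, 19.7% were called higher and 20.5% lower in that comparison, 40.1% in either direction. With STC1-overexpressing corpses, again compared with macrophages alone, Cxcl10 and Irgm1 rose and Irf1, Gbp7 and Gbp3 fell, that is 2 of 9 higher and 3 of 9 lower. There the shares of all genes were 21.4% and 22.4%, or 43.8% together. Both shares of members stand near the background, and the 2 comparisons use the same macrophages alone. The median log2 fold change of the 9 members was −0.06 with control corpses and −0.24 with STC1-overexpressing corpses, against −0.000959 and −0.03 over all genes tested.

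**Figure D2:**
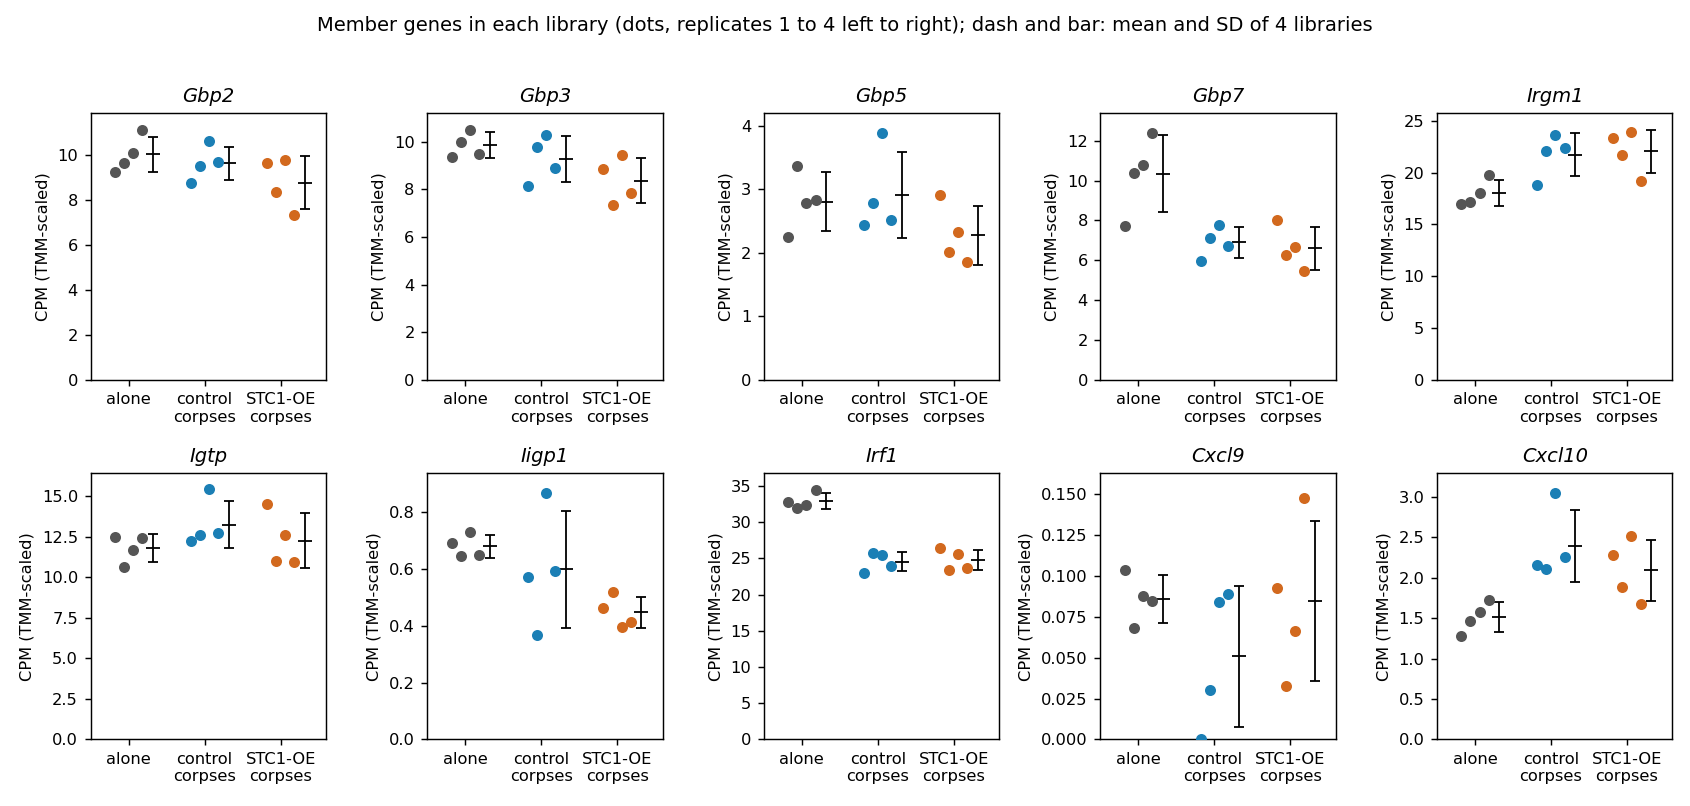
Level of each of the 10 members in CPM (vertical axis, from 0) in every library of macrophages alone (grey), with control corpses (blue) and with STC1-overexpressing corpses (orange); dashes and bars are mean and SD of 4 libraries. Irf1 is lower in all 8 libraries with corpses than in any of macrophages alone, Cxcl10 is higher with control corpses without overlap, and the ranges of the Gbp genes overlap between the groups, those of Gbp7 through replicate 1 of macrophages alone.

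Among the guanylate-binding proteins, Gbp7 fell in both corpse groups. These large GTPases assemble on membranes; Gbp7 has been linked to the NADPH oxidase of phagocytes and to autophagy. Gbp7 (ENSMUSG00000040253.15, chr3:142530342-142550149, GRCm38) stood at 7.74, 10.4, 10.8 and 12.4 CPM in replicates 1 to 4 of macrophages alone. It stood at 5.97, 7.12, 7.79 and 6.72 CPM with control corpses, and at 8.02, 6.26, 6.66 and 5.47 CPM with STC1-overexpressing corpses. Replicate 1 of macrophages alone lay within the range of both corpse groups, and the other 3 lay above it. The means were 10.3 ± 1.93, 6.90 ± 0.761 and 6.60 ± 1.07 CPM (SD, n = 4). The log2 fold change was −0.59 ± 0.14 (standard error) with control corpses (edgeR adjusted p = 0.00424) and −0.65 ± 0.14 with STC1-overexpressing corpses (edgeR adjusted p = 0.00214). With replicates 1 and 2 of each group only, the change with STC1-overexpressing corpses was −0.35 and not called (edgeR adjusted p = 0.124). The change with control corpses was not called when tested against a 1.2-fold change (edgeR adjusted p = 0.054). The Gbp7 exons share 11.3% of their bases with a processed pseudogene, Gm43802, and 8.77% of the 150-base stretches of Gbp7 transcripts also occur in it. Gm43802 had 0 counts in all libraries, but reads that fit both genes can be left out as ambiguous. The 0 is therefore no measure of its RNA, and the assignment of reads there is uncertain.

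Gbp3 and Gbp2, neighbours of Gbp7 in the same cluster on chromosome 3, moved less. Gbp3 (ENSMUSG00000028268.14, chr3:142560026-142573209) was at 9.36, 10, 10.5 and 9.50 CPM in macrophages alone, at 8.13, 9.78, 10.3 and 8.91 CPM with control corpses, and at 8.86, 7.33, 9.44 and 7.83 CPM with STC1-overexpressing corpses. Its replicate 3 with STC1-overexpressing corpses overlapped the lowest macrophages alone, and the other 3 lay below them. Gbp3 fell by 0.24 ± 0.08 on the log2 scale with STC1-overexpressing corpses (edgeR adjusted p = 0.0194), and its value with control corpses was −0.09 ± 0.08 (edgeR adjusted p = 0.42). The call was lost without replicate 3 of macrophages alone (edgeR adjusted p = 0.0713), without replicate 2 (0.106) or 4 (0.0871) of the STC1 group, and with DESeq2 (0.052). It was also lost with replicates 1 and 2 only, with replicates 3 and 4 only, and when tested against a 1.2-fold change.

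Gbp2 (ENSMUSG00000028270.12, chr3:142620602-142638008), which is anchored to membranes by a lipid tail, was at 9.22, 9.66, 10.1 and 11.1 CPM in macrophages alone. With control corpses the levels of Gbp2 were 8.76, 9.53, 10.6 and 9.68 CPM, and with STC1-overexpressing corpses 9.66, 8.33, 9.77 and 7.33 CPM. The ranges overlapped in both comparisons, and neither change was called. The log2 fold changes were −0.06 ± 0.08 (edgeR adjusted p = 0.604) and −0.20 ± 0.08 (edgeR adjusted p = 0.0589). The second value passed the threshold without replicate 1 of macrophages alone (edgeR adjusted p = 0.045) and without replicate 1 or replicate 3 of the STC1 group (0.0308 each). It also passed with upper quartile scaling, without the low-count filter, and with replicates 3 and 4 only.

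Gbp5 (ENSMUSG00000105504.4, chr3:142493978-142522344), known for promoting assembly of the NLRP3 inflammasome, was the lowest of the 4 guanylate-binding proteins per kilobase of exon. Its levels were 2.24, 3.37, 2.78 and 2.83 CPM in macrophages alone, 2.44, 2.78, 3.89 and 2.52 CPM with control corpses, and 2.90, 2.01, 2.32 and 1.86 CPM with STC1-overexpressing corpses. All 3 groups overlapped. The log2 fold changes against macrophages alone were 0.05 ± 0.16 (edgeR adjusted p = 0.837) and −0.30 ± 0.16 (edgeR adjusted p = 0.138). The latter passed the threshold without replicate 1 of the STC1 group (edgeR adjusted p = 0.0334).

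Among the immunity-related GTPases, Irgm1 rose and Igtp and Iigp1 were not called. Irgm1 (ENSMUSG00000046879.7, chr11:48861968-48871683) stays on the cell's own membranes, where it restrains the effector GTPases and supports autophagy. It stood at 17.0, 17.2, 18 and 19.8 CPM in macrophages alone, at 18.8, 22.1, 23.6 and 22.4 CPM with control corpses and at 23.3, 21.7, 23.9 and 19.2 CPM with STC1-overexpressing corpses. Replicate 4 of macrophages alone overlapped 1 library of each corpse group, and the other libraries were apart. The means were 17.99 ± 1.26, 21.7 ± 2.07 and 22.04 ± 2.08 CPM (SD, n = 4). Irgm1 rose by 0.27 ± 0.08 with control corpses (edgeR adjusted p = 0.011) and by 0.29 ± 0.08 with STC1-overexpressing corpses (edgeR adjusted p = 0.00624) on the log2 scale. Neither was called when tested against a 1.2-fold change (edgeR adjusted p = 0.85 and 0.59), nor was the second with replicates 3 and 4 only (edgeR adjusted p = 0.08).

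Igtp (ENSMUSG00000078853.8, chr11:58199556-58207591), also called Irgm3, is a regulator of the same kind as Irgm1. It was at 12.5, 10.6, 11.7 and 12.4 CPM in macrophages alone, at 12.2, 12.6, 15.4 and 12.7 CPM with control corpses and at 14.5, 11, 12.6 and 10.9 CPM with STC1-overexpressing corpses. Replicate 3 with control corpses stood above the other libraries, and the groups overlapped. Igtp had log2 fold changes of 0.17 ± 0.09 (edgeR adjusted p = 0.158) and 0.05 ± 0.09 (edgeR adjusted p = 0.672). Its exons share 8.01% of their bases with its neighbour Irgm2 on the same strand, where reads lying wholly within the shared bases cannot be told apart. Of the 150-base stretches of Igtp transcripts, 0.739% also occur in Irgm2.

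Iigp1 (ENSMUSG00000054072.11), also called Irga6, is an effector that loads onto the vacuole of Toxoplasma. Its level was near the low end of what was tested, at 0.691, 0.646, 0.731 and 0.65 CPM in macrophages alone, 0.572, 0.367, 0.869 and 0.592 CPM with control corpses and 0.463, 0.519, 0.397 and 0.414 CPM with STC1-overexpressing corpses. All 4 libraries with STC1-overexpressing corpses were below all 4 of macrophages alone, as in 20.2% of all genes tested, while control corpses overlapped both. The log2 fold change was −0.60 ± 0.26 with STC1-overexpressing corpses, which missed the threshold (edgeR adjusted p = 0.0588), and −0.17 ± 0.24 with control corpses (edgeR adjusted p = 0.611). Iigp1 was not called under any of the alternatives run for these comparisons, in which its adjusted p with STC1-overexpressing corpses ranged from 0.0503 to 0.425.

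Irf1, the factor that switches on the later genes, fell in both corpse groups. Irf1 (ENSMUSG00000018899.16, chr11:53770014-53778374) stood at 32.8, 32, 32.4 and 34.5 CPM in macrophages alone. With control corpses it was at 23.0, 25.8, 25.5 and 24 CPM, and with STC1-overexpressing corpses at 26.4, 23.4, 25.6 and 23.7 CPM. Every library with corpses was below every library of macrophages alone, and the corpse groups overlapped. The mean fell from 32.9 ± 1.10 CPM to 24.6 ± 1.33 and 24.8 ± 1.43 CPM (SD, n = 4). Irf1 fell by 0.43 ± 0.05 on the log2 scale with control corpses (edgeR adjusted p = 4.13e-09) and by 0.41 ± 0.05 with STC1-overexpressing corpses (edgeR adjusted p = 8.36e-09). In linear terms Irf1 fell by 25.5% and by 24.8%. It was called under all 21 alternatives in each comparison, with log2 fold changes of −0.44 to −0.39 and −0.44 to −0.37. Lower ranges without overlap were found for 18.9% of all genes with control and for 20.2% with STC1-overexpressing corpses, and ranges without overlap in either direction for 37.2% and 40.0%. The antisense gene Gm17334, which shares 3.4% of the Irf1 exon bases, had 176 counts over all 12 libraries.

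Of the 2 chemokines, Cxcl10 was detected and rose, and Cxcl9 was at a few counts. Cxcl10 (ENSMUSG00000034855.13, chr5:92346638-92348889) stood at 1.28, 1.46, 1.58 and 1.72 CPM in macrophages alone, at 2.16, 2.11, 3.05 and 2.25 CPM with control corpses and at 2.28, 1.88, 2.52 and 1.68 CPM with STC1-overexpressing corpses. With control corpses all 4 libraries were above those of macrophages alone, as in 18.3% of all genes tested. With STC1-overexpressing corpses replicate 4 lay just below the highest of macrophages alone. Cxcl10 rose by 0.66 ± 0.16 on the log2 scale with control corpses (edgeR adjusted p = 0.000942), a call made under all 21 alternatives. With STC1-overexpressing corpses it rose by 0.46 ± 0.16 (edgeR adjusted p = 0.0202). The latter call was lost without replicate 1 of macrophages alone (edgeR adjusted p = 0.0625) and without replicate 1 (0.0506) or 3 (0.0855) of the STC1 group. It was also lost with replicates 3 and 4 only (edgeR adjusted p = 0.226) and when tested against a 1.2-fold change. The antisense gene Art3, which shares 5.91% of the exon bases of Cxcl10, had 63 counts over all libraries.

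Cxcl9 (ENSMUSG00000029417.9, chr5:92321347-92328079), the chemokine most tied to interferon-gamma, was found at a few counts per library. It had 3, 2, 3 and 3 counts in macrophages alone, 0, 1, 3 and 3 with control corpses and 3, 1, 2 and 5 with STC1-overexpressing corpses. The mean levels were 0.086, 0.0509 and 0.0847 CPM. Exact two-sided permutation tests over 70 arrangements gave p = 0.257 for control corpses and p = 0.971 for STC1-overexpressing corpses against macrophages alone, and p = 0.314 between the corpse groups (0.471, 0.971 and 0.471 after adjustment over the 3 tests). A difference in Cxcl9 was not detectable at this depth.

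**Figure D3:**
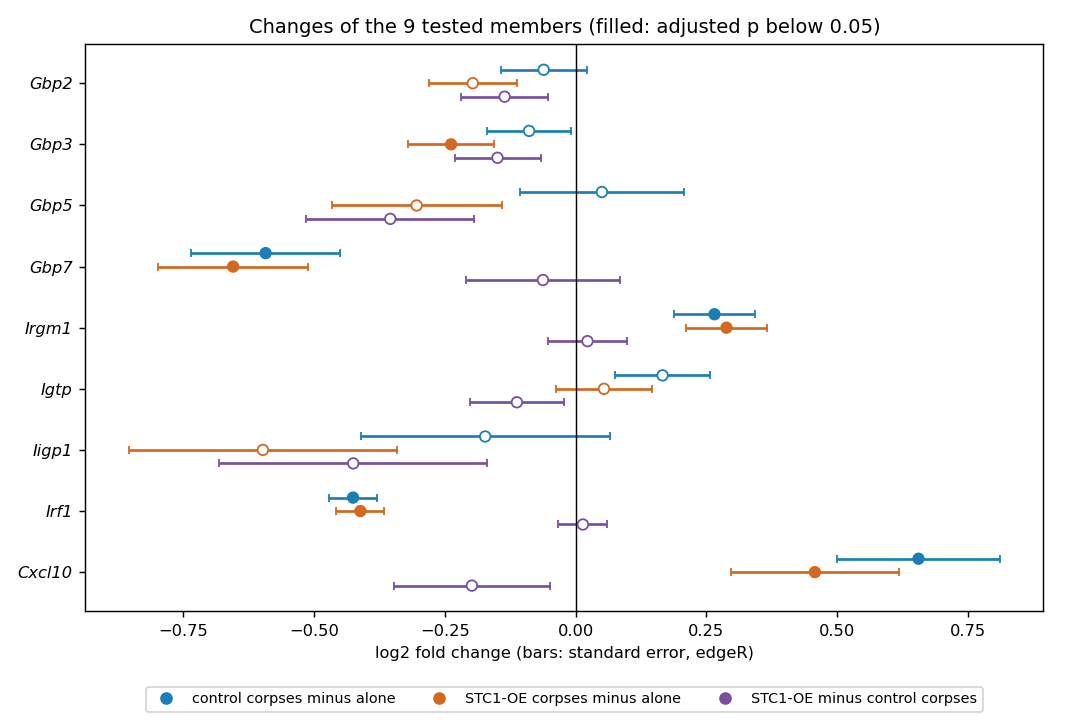
Log2 fold changes (horizontal axis) of the 9 tested members with edgeR standard errors, for control corpses minus alone, STC1-overexpressing corpses minus alone and STC1-overexpressing minus control corpses; filled points have an adjusted p below 0.05. Irf1 and Gbp7 are called lower and Irgm1 and Cxcl10 higher with both kinds of corpses, Gbp3 is called lower with STC1-overexpressing corpses, and no point of the third comparison is filled.

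Levels of different genes were compared as CPM per kilobase of exon. In macrophages alone Irf1 was highest at 8.28 ± 0.275, followed by Igtp at 5.83 ± 0.432 and Gbp2 at 3.98 ± 0.312. Irgm1 at 3.10 ± 0.216 and Gbp3 at 3.02 ± 0.164 did not differ beyond their ranges. Gbp7 at 1.84 ± 0.344, Cxcl10 at 0.671 ± 0.0837, Gbp5 at 0.423 ± 0.0692, Iigp1 at 0.117 ± 0.00683 and Cxcl9 at 0.0285 ± 0.00483 followed, each below the one before without overlap. With control corpses Igtp at 6.55 ± 0.726 and Irf1 at 6.18 ± 0.335 overlapped at the top, and Gbp7 at 1.23 ± 0.136 overlapped Cxcl10 at 1.06 ± 0.197. The same pairs overlapped with STC1-overexpressing corpses, where Irf1 was at 6.23 ± 0.361, Igtp at 6.06 ± 0.826, Gbp7 at 1.18 ± 0.190 and Cxcl10 at 0.929 ± 0.168 CPM per kilobase. Irgm1 and Gbp2 also overlapped in both corpse groups.

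Whether the STC1 status of the corpses mattered for these genes was asked by comparing the corpse groups. None of the 9 tested members was called by edgeR or by DESeq2, and 1 of 9, Gbp5, had an unadjusted p below 0.05 (0.037). Of all genes, 3.33% were called higher and 2.12% lower, 5.44% in all, at an adjusted p below 0.05. The share of all genes at an unadjusted p below 0.05 was not worked out. Counts at that threshold, here and for the lists below, therefore have no background beside them. The largest differences were those of Iigp1, at −0.43 ± 0.26 on the log2 scale (edgeR adjusted p = 0.383), and of Gbp5, at −0.35 ± 0.16 (edgeR adjusted p = 0.222). Cxcl10 was at −0.20 ± 0.15, Gbp3 at −0.15 ± 0.08, Gbp2 at −0.14 ± 0.08, Igtp at −0.11 ± 0.09 and Gbp7 at −0.06 ± 0.15. Irf1 at 0.01 ± 0.05 and Irgm1 at 0.02 ± 0.08 had the differences nearest to 0. The ranges of the corpse groups overlapped for all 10 members, while 5.86% of all genes tested had higher and 4.85% lower ranges without overlap. With replicates 3 and 4 of each group only, Gbp5 (edgeR adjusted p = 0.022) and Igtp (edgeR adjusted p = 0.0413) were called lower, among 1925 genes called in all. The number of all genes called, 893, moved to 474 without replicate 3 and to 486 without replicate 4 of the STC1 group, and to 561 without replicate 1 and 529 without replicate 3 of the control group.

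Of the other GTPases of these families, 16 of 18 listed names matched a counted gene and 9 were tested. With control corpses 2 were higher and 2 lower by edgeR, and 3 and 2 by DESeq2. With STC1-overexpressing corpses the counts were 0 and 2 by both, and between the corpse groups 0 and 0 by both. At an unadjusted p below 0.05 in edgeR they were 3 and 2, 1 and 2, and 1 and 1 in the 3 comparisons. The shares of all genes called in either direction, at an adjusted p below 0.05 by edgeR, were 40.1%, 43.8% and 5.44%. Gbp9, a guanylate-binding protein of the chromosome 5 cluster, rose from 29.7 ± 1.09 to 32.9 ± 1.72 CPM with control corpses (log2 fold change 0.15 ± 0.04, edgeR adjusted p = 0.00609) and stood at 30.5 ± 1.10 CPM with STC1-overexpressing corpses, where the corpse groups were not called apart (edgeR adjusted p = 0.132). Gbp6, of the same cluster, rose with control corpses from 0.152 to 0.411 CPM (1.45 ± 0.41, edgeR adjusted p = 0.00494), where its replicate 3 was highest at 0.7 CPM. With STC1-overexpressing corpses it was at 0.311 CPM (edgeR adjusted p = 0.0528), and it passed the threshold there without any 1 of 4 libraries, with an adjusted p down to 0.0326 by edgeR. Gbp8 fell from 1.14 ± 0.377 to 0.608 ± 0.188 and 0.496 ± 0.155 CPM. Its log2 fold changes were −0.88 ± 0.25 (edgeR adjusted p = 0.00512) and −1.19 ± 0.26 (edgeR adjusted p = 0.000443). Without replicate 2 of macrophages alone the first was −0.63 and not called (edgeR adjusted p = 0.0518). Irgc1, a family member known from the testis, fell from 0.664 ± 0.0675 to 0.218 ± 0.0235 and 0.331 ± 0.0641 CPM (edgeR adjusted p = 1.86e-05 and 0.00214), with no overlap between groups.

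The remaining tested GTPases were not called in any comparison with all 12 libraries. Irgm2, the neighbour of Igtp and a regulator like it, was at 24.4 ± 1.60, 25.5 ± 1.5 and 25.8 ± 3.40 CPM. Irgq, a quasi-GTPase of the family, was at 29.5 ± 1.49, 28.9 ± 1.60 and 30.8 ± 1.28 CPM, and the very large GTPase Gvin1 at 8.27 ± 1.15, 9.90 ± 0.949 and 9.14 ± 1.37 CPM. Without replicate 4 of the STC1 group Gvin1 was called higher in both comparisons with macrophages alone (edgeR adjusted p = 0.0125 and 0.0242), and with control corpses also without replicate 1 of macrophages alone (0.0283) or of the STC1 group (0.0495). Gm4951 was at 1.32, 1.33 and 1.21 CPM and F830016B08Rik at 0.304, 0.253 and 0.167 CPM, the latter called lower without replicate 1 of the STC1 group (edgeR adjusted p = 0.0453). The 7 matched genes that were not tested, Gbp2b, Gbp4, Gbp10, Gbp11, Ifi47, Tgtp1 and Tgtp2, had mean levels of at most 0.169 CPM in any group. Genes of these clusters are similar in sequence, so counts of the low ones are uncertain.

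The signalling genes upstream of the members moved in both directions. Ifng, which encodes the ligand, had 0 counts in all 12 libraries, which allows up to 0.00754 CPM over all of them, so the genes' known inducer was not detected as RNA. Ifnb1, a type I interferon, had 2 counts in macrophages alone, 0 with control and 1 with STC1-overexpressing corpses. Of 17 tested signalling genes, 6 were higher and 8 lower with control corpses, and 5 and 6 with STC1-overexpressing corpses. Between the corpse groups the counts were 0 and 0 by edgeR (3 and 0 at an unadjusted p below 0.05, 1 and 0 by DESeq2). The shares of all genes called by edgeR in either direction were 40.1%, 43.8% and 5.44%.

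Both receptor chains fell. Ifngr1, which binds the ligand, stood at 133.0, 140.0, 142.0 and 142.0 CPM in macrophages alone, at 92.6, 95.0, 92.6 and 96 CPM with control corpses and at 92.0, 95.7, 94.9 and 95.9 CPM with STC1-overexpressing corpses. The groups with and without corpses were far apart, and the 2 corpse groups overlapped. Ifngr1 fell by 0.57 ± 0.03 (edgeR adjusted p = 6.04e-17) and by 0.56 ± 0.03 (edgeR adjusted p = 7.64e-17) on the log2 scale. Ifngr2, the signalling chain, fell from 119.6 ± 2.90 to 104.8 ± 3.53 and 111.7 ± 3.25 CPM (edgeR adjusted p = 2.8e-06 and 0.00678). The kinase Jak2 fell from 44.6 ± 1.08 to 39.4 ± 1.38 and 39.9 ± 1.11 CPM. Jak1, which serves both interferon receptors, was at 301.0 ± 2.86, 287.9 ± 5.83 and 297.9 ± 6.58 CPM, called lower with control corpses (edgeR adjusted p = 0.0311) and not with STC1-overexpressing corpses (0.651). Leaving out 1 library ended that call in 10 of 12 cases, with an adjusted p of up to 0.147 by edgeR. The type I receptor chain Ifnar1 was likewise called lower with control corpses, at 238.0 ± 6.05 against 222.6 ± 2.64 CPM (edgeR adjusted p = 0.00204), and stood at 231.4 ± 4.30 CPM with STC1-overexpressing corpses (edgeR adjusted p = 0.2). The corpse groups themselves were not called apart for Jak1 or Ifnar1 (edgeR adjusted p = 0.253 and 0.197). Without replicate 1 of the STC1 group the fall of Ifngr2 there was not called (edgeR adjusted p = 0.0624).

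An inhibitor and several factors of the Irf family were also called. Socs1, an inhibitor of the Jak kinases, rose from 2.69 ± 0.0806 to 4.33 ± 0.357 and 4.11 ± 0.333 CPM, by 0.69 ± 0.10 (edgeR adjusted p = 1.73e-06) and 0.61 ± 0.10 (edgeR adjusted p = 1.29e-05). Irf2, which competes with Irf1 for the same DNA element, fell with it, from 77.5 ± 4.30 to 61.9 ± 2.11 and 65.2 ± 3.58 CPM (edgeR adjusted p = 1.81e-07 and 8.9e-06). Irf8, a factor of macrophage identity that pairs with Irf1, rose from 219.7 ± 6.05 to 240.3 ± 7.99 and 247.8 ± 6.44 CPM. Irf9, the DNA-binding part of the type I complex, rose from 48.7 ± 1.5 to 53.3 ± 1.90 and 53.2 ± 3.52 CPM, the latter not called without replicate 1 of the STC1 group (edgeR adjusted p = 0.0559).

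Other known targets of interferon-gamma also split. Of 25 tested, 12 were higher and 7 lower with control corpses, and 9 and 7 with STC1-overexpressing corpses. The medians of these 25 were 0.03 and 0.06 on the log2 scale. The shares of all genes called higher and lower were 19.7% and 20.5% with control and 21.4% and 22.4% with STC1-overexpressing corpses. Il18bp, the decoy for interleukin 18, was at 12, 14.1, 14.5 and 12.3 CPM in macrophages alone and between 38.2 and 44.8 CPM in all 8 libraries with corpses (log2 fold changes 1.69 ± 0.05 and 1.65 ± 0.05). Ciita, which switches on MHC class II genes, fell by 2.03 ± 0.13 and 2.18 ± 0.13. Casp4, the caspase that senses cytosolic lipopolysaccharide, fell from 15.6 ± 0.344 to 9.40 ± 0.784 and 8.90 ± 0.507 CPM, and Wars, a tRNA synthetase, rose from 36.1 ± 1.74 to 51.7 ± 2.35 and 55.7 ± 1.77 CPM. The enzyme gene Ido1 and the chemokine gene Cxcl11 had 0 counts in all libraries. Between the corpse groups 1 of 25 was higher, the MHC class I gene H2-D1 (0.11, edgeR adjusted p = 0.0197), and 1 lower, the Fc receptor gene Fcgr1 (−0.12, edgeR adjusted p = 0.0436). Leaving out 1 library ended the call of H2-D1 in 4 and that of Fcgr1 in 8 of 12 cases. The shares of all genes called between the corpse groups were 3.33% higher and 2.12% lower. By DESeq2 2 of the 25 were higher and 1 lower, and at an unadjusted p below 0.05 in edgeR 5 and 1.

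The type I interferon response list, which holds no member, moved mostly 1 way. Of its 23 tested genes 20 were higher and 0 lower with control corpses, with a median log2 fold change of 0.66. With STC1-overexpressing corpses 19 were higher and 0 lower, with a median of 0.52. Of all genes, 19.7% were called higher with control and 21.4% with STC1-overexpressing corpses. The list was chosen with earlier results of these data known. The markers of other cells and of the corpses' lineage given above moved in the same comparisons, and their part was not tested. Rsad2, an antiviral enzyme, was at 31.0, 36.3, 35.4 and 37.7 CPM in macrophages alone, at 72.5, 81.0, 109.0 and 79.0 CPM with control corpses and at 92.1, 67.1, 91.2 and 71.1 CPM with STC1-overexpressing corpses. All libraries with corpses were above those without. Oasl1, an interferon-induced regulator of translation of Irf7, rose by 1.14 ± 0.11 and 1.05 ± 0.11 on the log2 scale, Ifit3, an interferon-induced antiviral protein, by 1.02 ± 0.16 and 0.76 ± 0.17, and Cmpk2, a mitochondrial nucleotide kinase, by 1.00 ± 0.16 and 0.90 ± 0.17. Between the corpse groups 0 of 23 were called in either direction by edgeR or DESeq2, with 0 higher and 3 lower at an unadjusted p below 0.05. None was lower than in macrophages alone at an unadjusted p below 0.05 or by DESeq2. With 1 library left out, 19 to 21 were higher with control and 17 to 20 with STC1-overexpressing corpses.

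**Figure D4:**
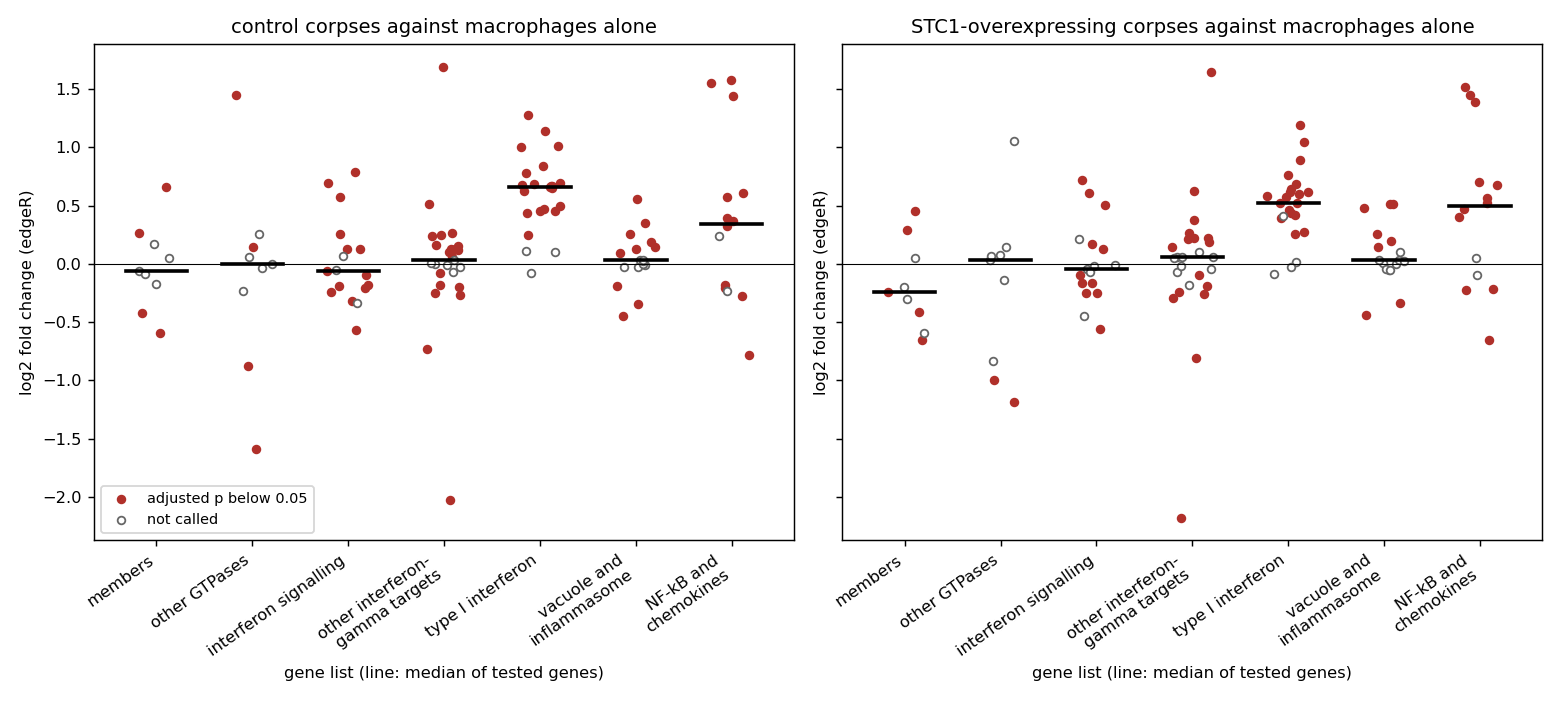
Log2 fold changes (vertical axis) of every tested gene in 7 lists, for control corpses (left panel) and STC1-overexpressing corpses (right panel) against the same macrophages alone; red points have an adjusted p below 0.05, open points do not, and lines are list medians. The 9 members lie on both sides of 0, whereas 20 of 23 (left) and 19 of 23 (right) type I interferon genes are called higher. Of all genes tested, 19.7% (left) and 21.4% (right) are called higher.

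Genes that work with the GTPases at vacuoles and inflammasomes gave 7 higher and 3 lower of 17 with control corpses, and 6 and 2 with STC1-overexpressing corpses. The shares of all genes called in either direction were 40.1% and 43.8%, and 5.44% between the corpse groups. Rnf213, a large ubiquitin ligase that coats bacteria, rose by 0.56 ± 0.07 and 0.51 ± 0.07 on the log2 scale. Gabarap, an autophagy protein that helps place the GTPases, rose by 0.35 ± 0.02 and 0.48 ± 0.02. The inflammasome sensor Nlrp3 fell by 0.44 ± 0.04 and 0.33 ± 0.04, and Gsdmd, which forms the pore of pyroptosis, by 0.34 ± 0.04 and 0.44 ± 0.04. Between the corpse groups 3 of 17 were higher and 0 lower with STC1-overexpressing corpses: the autophagy adaptor Sqstm1 (0.26 ± 0.03, edgeR adjusted p = 1.72e-07), Gabarapl1 (0.15 ± 0.04, edgeR adjusted p = 0.0305) and Gabarap (0.13 ± 0.02, edgeR adjusted p = 0.000746). At an unadjusted p below 0.05 these counts were 5 and 2, and by DESeq2 4 and 0. Leaving out 1 library ended the call of Gabarapl1 in 5 of 12 cases.

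Of 14 tested NF-kB-linked genes and chemokines, 8 were higher and 4 lower with control corpses, and 9 and 3 with STC1-overexpressing corpses. The shares of all genes called in either direction were 40.1% and 43.8%, and 5.44% between the corpse groups. Ccl2 and Ccl7, which draw monocytes, rose. Ccl2 rose from 28.2 ± 2.38 to 84.1 ± 13.2 and 80.9 ± 7.17 CPM, and Ccl7 from 17.5 ± 1.07 to 51.4 ± 7.99 and 48.1 ± 5.05 CPM. Ccl4 rose by 0.61 ± 0.09 and 0.68 ± 0.09 on the log2 scale, and the cytokine gene Tnf rose by 0.57 ± 0.05 and 0.70 ± 0.05. Nfkbiz, a nuclear co-regulator of NF-kB, fell by 0.78 ± 0.08 and 0.65 ± 0.08. Between the corpse groups 1 of 14 was higher and 0 lower by edgeR, and 2 and 0 by DESeq2. Nfkbia, the inhibitor of NF-kB, was higher with STC1-overexpressing than with control corpses (0.13, edgeR adjusted p = 0.04998). Leaving out 1 library ended that call in 8 of 12 cases.

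The same libraries were often the highest or lowest of their group. With control corpses, replicate 3 was the highest library in 8 of 9 tested members and in 23 of 23 type I interferon genes. Replicate 1 of the same group was the lowest in 7 of 9 members and in 18 of 23 type I genes. With STC1-overexpressing corpses, replicate 4 was the lowest in 6 of 9 members and in 16 of 23 type I genes. In macrophages alone replicate 4 was highest in 5 of 9 members and in 13 of 23 type I genes. The lowest library there differed between the lists. It was replicate 1 in 6 of 9 members and 9 of 23 type I genes, and replicate 3 in 0 of 9 and 12 of 23. These counts are a description of the libraries, without a test and without the shares over all genes beside them.

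**Figure D5:**
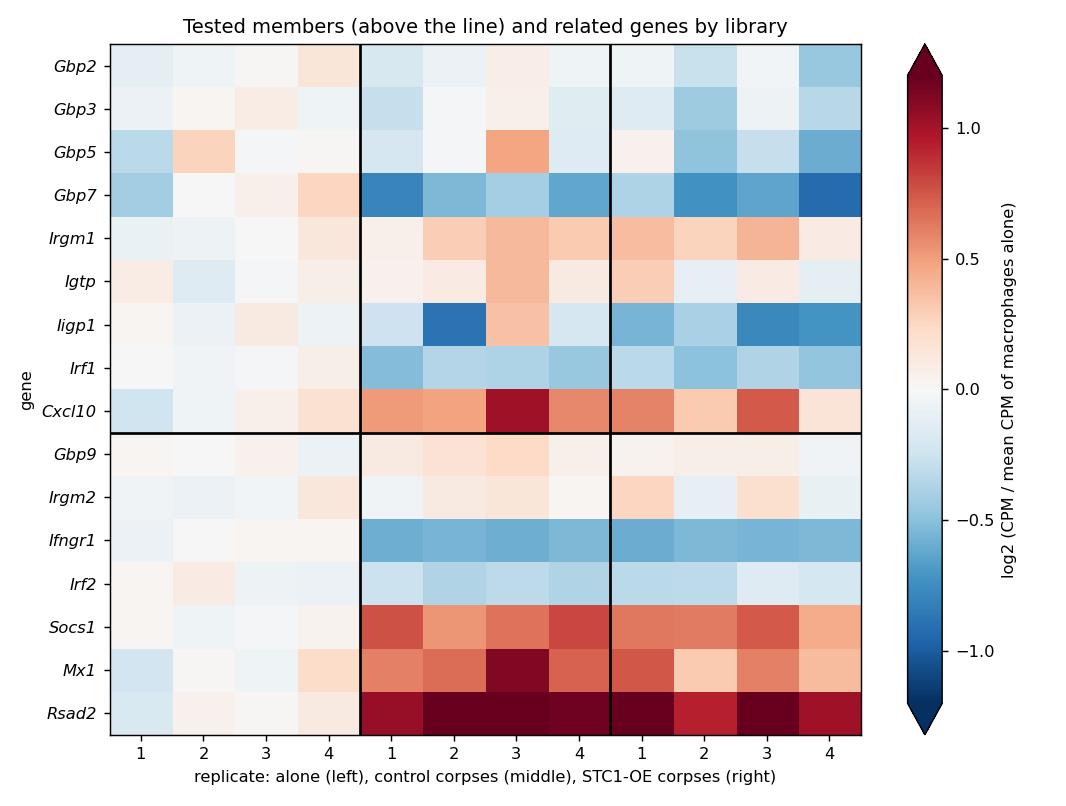
Log2 ratio of each library's CPM to the mean of macrophages alone (colour scale, blue lower and red higher, limited at 1.2 in each direction) for the 9 tested members and 7 related genes. Irf1, Gbp7, Ifngr1 and Irf2 are blue and Cxcl10, Socs1, Mx1 and Rsad2 red in all 8 libraries with corpses, and replicate 3 with control corpses is the reddest of its group for most members.

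The genes whose pattern was most like that of the members were ranked by Pearson correlation of log2 CPM over the 12 libraries, among 10119 protein-coding genes with a mean of at least 2 CPM. The libraries share groups and depth, so these values are descriptions. Cxcl10 was most like Mx1 (r = 0.961), Ifit3b (0.954), Oas1g (0.945), Phf11d (0.944) and Irf7 (0.94). Irf1 was most like Rmnd5b (0.993), Pmaip1 (0.979), Synj1 (0.977), Clasp2 (0.974) and Emb (0.971). Near the mean of the 7 GTPases were Malsu1 (0.874), Tal1 (0.821), Zup1 (0.816) and Thumpd2 (0.807). Malsu1 was at −0.07 with control and −0.20 with STC1-overexpressing corpses on the log2 scale, and Zup1 at −0.09 and −0.31. The values were −0.25 and −0.26 for Rmnd5b, −0.76 and −0.65 for Pmaip1, and 0.78 and 0.52 for Mx1.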

How the data were processed

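RNA was sequenced from 12 libraries of mouse macrophages in 3 groups of 4, taken from the sample titles. The authors deposited whole-number read counts for 55604 genes, each library in its own file. HISAT2, HTSeq and DESeq2 and the builds mm10 and GRCm38 are named per the submitters' processing notes, without versions or roles, and the annotation release and the use of strand are not given in the sources used here. Lines naming no gene were left out. They held reads without a feature (10.55% to 14.69% of each total), ambiguous reads (5.53% to 6.62%) and reads of low alignment quality (5.17% to 5.85%). They also held unaligned reads (10.81% to 17.77%) and reads aligned more than once (5.74% to 7.03%). Symbols matched 54723 genes and not 881. Coordinates are those of GENCODE M21 (GRCm38), and promoter windows those of RefSeq.

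The tests ran in edgeR 4.0.16 under R 4.3.3. Genes were filtered by filterByExpr (at least 10 counts, total at least 15), scaled by TMM and fitted by robust quasi-likelihood to all 12 libraries, with a group mean each. Two-sided p-values were adjusted by Benjamini-Hochberg over 16406 genes at a threshold of 0.05. The biological coefficient of variation was 4.53%. CPM are TMM-scaled, and log2 CPM used a prior count of 2. Cxcl9 was compared by exact permutation of library labels. The members and lists were chosen with earlier results of these data known. Always named were the members, the tested other GTPases and chosen signalling genes, and of each other list up to 4 called genes per comparison with the largest log2 fold change and a mean of at least 2 CPM; of the gene profiles, the 5 most like. Mx1 in the heat map was chosen after its values were seen.

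Replicate numbers did not pair the libraries: deviations of same-numbered libraries correlated at −0.0434 to 0.0912 over 12 pairs. Replicates differed by more than sampling noise (chi-square per degree of freedom 2.73 to 17.2), so all were kept. Alternatives were RLE and upper quartile scaling, omitting the low-count filter, DESeq2 1.42.0, fits to the compared groups alone, a replicate block, replicates 1 and 2 or 3 and 4 only, a 1.2-fold threshold in edgeR, and leaving out each library. The scripts were tested on simulated data. Some genes that the naming rule admits are not reported here.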

Additional observations from a re-analysis of the deposited data

Results flagged for a closer look

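In 2 of 30 sets of 4 libraries (10 members in 3 groups) 1 library stood far from the others, where chance alone gives about 1 in 20. Both were the highest library with control corpses, replicate 3. Igtp was at 15.4 CPM there, with a gap to the next library of 0.844 of the group's range. Cxcl10 was at 3.05 CPM, with a gap of 0.851 of the range. The same library was the highest of its group in 23 of 23 type I interferon genes.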

How the results depend on the processing

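Over 27 member results, 566 values from 21 alternatives gave 538 with the same call, 17 that lost and 11 that gained a call. Among values called in either fit, 0 reversed direction. Where neither fit gave a call, a change of sign was counted as the same, as for Gbp5 with control corpses (−0.11 to 0.20). Irf1 in both comparisons with macrophages alone, and Cxcl10 with control corpses, were called in all 21. Tested against 1.2-fold, 1 member was higher and 1 lower with control corpses (1687 genes in all, against 6582 otherwise). With STC1-overexpressing corpses 0 members were higher then (2119 genes in all, against 7186), and between the corpse groups 4 genes in all were called, against 893. With replicates 1 and 2 only, the numbers of all genes called were 4090, 4650 and 33 in the 3 comparisons, and 1 member was lower with STC1-overexpressing corpses. With replicates 3 and 4 only, 0 members were higher with STC1-overexpressing corpses than in macrophages alone, 2 were lower than with control corpses, and 1925 genes in all differed between the corpse groups. With 1 library left out, the STC1-overexpressing group against macrophages alone gave 1 to 2 members higher and 2 to 5 lower, and the corpse groups differed in 474 to 1200 genes. Cxcl10 was the member lost without replicate 1 of macrophages alone or replicate 1 or 3 of the STC1 group, and 5 were lower without replicate 1 of the STC1 group. The cause was not tested. Igtp with control corpses gained a call without the filter (edgeR adjusted p = 0.0381) and with replicates 3 and 4 only (0.0357). Other scalings moved the median of all genes by at most 0.0179 on the log2 scale. Cxcl9 did not pass the filter on low counts, so it was not tested in the fit across genes. Whether more depth would change the other members' calls was not tested.

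With the replicate block, 2 members were higher and 2 lower with control corpses, 2 and 3 with STC1-overexpressing corpses, and 0 and 0 between the corpse groups. All genes called came to 6712, 7300 and 1089, within 1.5 times of the counts without the block. Of the 12 libraries, 2 correlated best with their own number in both other groups. The block changed no member's call.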
